A study of Mus musculus with 9 samples.

Results

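Replication-dependent histone genes encode the bulk of the histone protein that packages newly copied DNA. They were taken here as every gene symbol of the H1, H2A, H2B, H3 and H4 cluster families, H1f1 to H1f5 and the numbered H2ac, H2bc, H3c and H4c genes, which gave 66 of the 40213 symbols counted. There were 5 H1, 18 H2A, 18 H2B, 12 H3 and 13 H4 genes. The cells were primary calvarial pre-osteoblasts, bone-forming precursors from the skull of 3-day-old wild-type mouse pups, and were infected on day 3 with 1 of 3 adenoviruses. Ad-C is the control virus, Ad-Hif1a carries Hif1a and Ad-Hif2a carries Hif2a (Epas1), the α subunits of hypoxia-inducible factors HIF-1 and HIF-2. All cells were kept until day 6 in osteogenic medium, which held L-AA at 50 μg/ml and β-Gp at 5 mM, in an ordinary incubator, and each virus had 3 libraries of total RNA. Whole cultures were infected and sequenced in bulk. The study's statistics count n in independent experiments, while the labels do not say what separated the libraries of a group, and the p-values measure the spread between them.

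Most histone mRNAs of this class are made in S phase, when DNA is copied. Their genes lie in clusters and usually lack introns. The mRNA ends shortly after a conserved stem-loop, not in a poly(A) tail: the stem-loop is bound by SLBP and the transcript is cut with the help of the U7 snRNP, while NPAT activates the genes. H2A, H2B, H3 and H4 form the protein core of the nucleosome, and H1 is the linker histone that binds the DNA between cores. Some of these genes can also give a longer, polyadenylated transcript by reading past the stem-loop, which is known from differentiated cells.

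The stem-loop is what tells these transcripts apart from other mRNAs, so those of the genes named most often below are shown. They were read from GENCODE M21 transcripts of GRCm38, an earlier build than that of the counts, as RNA-sense DNA letters, 5′ to 3′. Capitals mark the 6-base stem, 4-base loop and closing stem.
H1f3: caaacGGCTCTTTTCAGAGCCaccca
H2ac19: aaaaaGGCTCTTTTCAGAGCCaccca
H2bc6: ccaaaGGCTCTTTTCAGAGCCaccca
H3c4: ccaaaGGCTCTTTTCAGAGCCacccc
H4c8: ccaaaGGCCCTTTTCAGGGCCgccca
H4c9: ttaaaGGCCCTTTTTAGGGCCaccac
H4c1: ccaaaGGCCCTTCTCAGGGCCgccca
A stem-loop of this shape was found within 100 bases of the stop codon in 42 of the 62 members with a matched coding transcript. The same 16 letters stood in 24 H1, H2A, H2B and H3 genes, and the H4 genes had other letters in the stem. In 17 of the 20 members without one, the annotated transcript ended within 48 bases of the stop codon, so the window was not covered. H2bc4, the most highly counted member, was annotated as spliced to a second exon with 742 bases after the stop codon.

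Library totals ran from 14372589 to 18623403 counts, and the histone genes held 0.0209% to 0.0217% of them in the Ad-C libraries, 0.0406% to 0.0450% in the Ad-Hif1a libraries and 0.0412% to 0.0482% in the Ad-Hif2a libraries. Hif1a averaged 190 ± 3.45 TMM-scaled CPM (SD, n = 3), the level scale used throughout, with Ad-C and 1831 ± 549 CPM with Ad-Hif1a, and Epas1 rose from 45.9 ± 3.59 to 1666 ± 736 CPM with Ad-Hif2a, in keeping with the labels. The other gene rose too, Epas1 to 524 ± 140 CPM with Ad-Hif1a and Hif1a to 536 ± 76.5 CPM with Ad-Hif2a (adjusted p = 0.00287 and 0.00846, edgeR). All 7 osteoblast markers examined were counted in every group, led by Col1a1, while the macrophage markers summed to 1011 to 1070 CPM per Ad-C library. Between 38 and 44 of the 66 genes had a count in an Ad-C library, 55 to 58 in an Ad-Hif1a library and 46 to 56 in an Ad-Hif2a library.

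The histone genes were higher with both HIF vectors. Their summed level was 209 ± 3.70 CPM in the controls, against 430 ± 17.9 under Ad-Hif1a and 452 ± 47.4 under Ad-Hif2a (SD, n = 3), a 2.06-fold and a 2.16-fold difference. Without H2bc4 and H1f2, the highest by count, the sums were 79.1, 188 and 198 CPM. A sum does not depend on how reads were divided among the near-identical genes in it, whereas the value of a single gene may.

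H4 genes differed most by ratio. Their sum was 4.91, 5.21 and 4.65 CPM in the Ad-C libraries, 33.6, 28.4 and 23.2 CPM with Ad-Hif1a, and 27.2, 23.7 and 40.5 CPM with Ad-Hif2a, 5.77-fold and 6.18-fold the Ad-C mean. For H3, the core histone that carries many of the studied chromatin marks, the 3 Ad-C libraries summed to 14, 12.1 and 14.7 CPM, the Ad-Hif1a libraries to 30.8, 28.8 and 25.8 CPM and the Ad-Hif2a libraries to 28, 27 and 36.9 CPM. H2B was the largest family and was close to even within groups, at 118, 116 and 115 CPM with Ad-C, 218, 237 and 213 CPM with Ad-Hif1a and 242, 219 and 263 CPM with Ad-Hif2a. The H2A sums were 45.7, 42.0 and 44.3 CPM with Ad-C, 102, 81.9 and 76.2 CPM with Ad-Hif1a and 84.7, 74.1 and 131 CPM with Ad-Hif2a. The linker H1 genes summed to 31, 30.8 and 28.9 CPM with Ad-C, 57.4, 63.0 and 71.0 CPM with Ad-Hif1a and 58.6, 68.4 and 33.5 CPM with Ad-Hif2a. Every vector library lay above every Ad-C library in all 5 families, with the smallest gap at H1 in Ad-Hif2a replicate 3. These sums are given without a test, and their directions against Ad-C held under each of the 3 other scalings and without each library in turn.

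**Figure D1:**
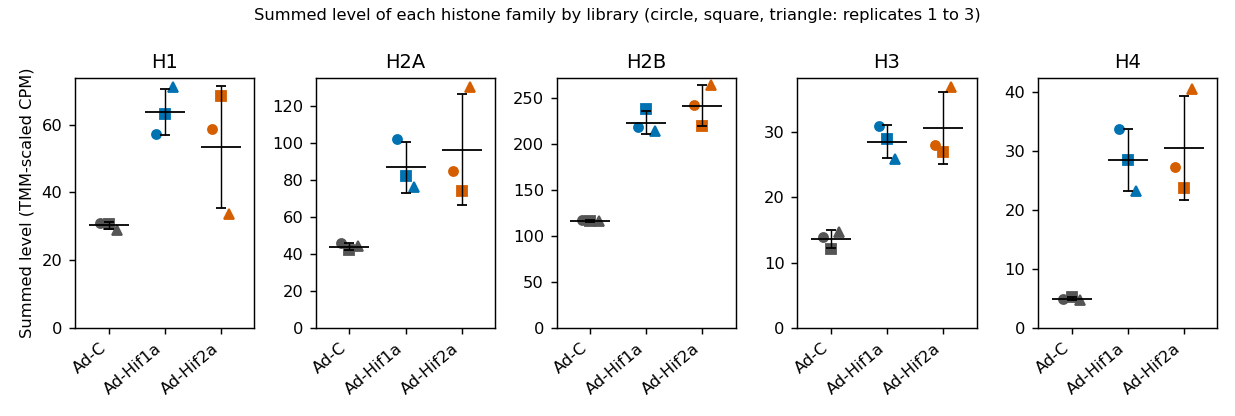
Summed TMM-scaled CPM of the members of each family (vertical axes, each from 0, on its own scale) in each library, by virus; marker shapes are replicates 1 to 3, and the long bar and whiskers are the mean and SD of 3 libraries. All 6 vector libraries sit above the 3 Ad-C libraries in every panel, and H4 goes from 4.93 to 28.4 and 30.5 CPM.

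Of the 66 genes, 36 were counted highly enough to be tested, among 14413 genes in all. With Ad-Hif1a, 16 rose and 0 fell at an adjusted p under 0.05 (edgeR's quasi-likelihood test, Benjamini-Hochberg over all genes tested), where 6.04% of all genes tested rose and 5.22% fell. With Ad-Hif2a, 15 rose and 0 fell, against 7.87% and 7.72% of all genes. The 2 comparisons share the Ad-C libraries, and 13 genes rose in both. Many members needed vector libraries to pass the count filter. Those below its cutoff in every Ad-C library had to be higher in some vector libraries. H2bc8, H2ac8 and H2ac24 needed vector libraries too, but did not pass the test in either comparison. Of the 17 that the Ad-C libraries alone would have kept, 9 rose with Ad-Hif1a and 10 with Ad-Hif2a, and 0 fell. At an unadjusted p under 0.05 there were 26 members with Ad-Hif1a and 24 with Ad-Hif2a, all higher, where 3771 and 4889 of all genes tested had such a p in either direction. DESeq2 called 24 and 21 members as risen and 0 as fallen, with 1260 and 1825 genes risen in all. Counting all 66 genes with no filter, mean CPM was higher in 59 and lower in 5 with Ad-Hif1a, and higher in 60 and lower in 5 with Ad-Hif2a, while 51.5% and 52% of all symbols with a count were higher.

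The number of calls depended on single libraries, as it did for all genes. With Ad-Hif1a it was 4, 7 and 4 without Ad-C replicate 1, 2 and 3, 10 and 5 without Ad-Hif1a replicate 1 and 2, and 29 when Ad-Hif2a replicate 3 was left out, and all genes that rose numbered from 303 to 2647 in the same fits, against 871 in the full fit. With Ad-Hif2a it was 4, 8 and 6 without Ad-C replicate 1, 2 and 3, and 9 without either Ad-Hif2a replicate 1 or Ad-Hif2a replicate 2. All genes that rose numbered 425, 582, 468, 637 and 973 in those fits, against 1135 in the full fit. Earlier results of these data set apart replicate 1 of Ad-Hif1a and replicate 3 of Ad-Hif2a, and leaving both out gave 27 members risen and 1 fallen in each comparison, with 2066 and 2098 genes risen in all. The fallen ones were H2ac23 with Ad-Hif1a (log2 fold change -1.74, adjusted p = 0.00658) and H2ac24 with Ad-Hif2a (-7.84, adjusted p = 0.000524), which were both counted unevenly within groups.

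Of the 6 H4 genes tested, 4 rose with each vector, where 6.04% of all genes tested rose with Ad-Hif1a and 7.87% with Ad-Hif2a. The Ad-C libraries alone would not have kept H4c1, H4c3 and H4c4. H4c8 stood at 2.37, 2.07 and 2.14 CPM with Ad-C, at 19.8, 13.6 and 10.7 CPM with Ad-Hif1a and at 15.8, 11 and 31.7 CPM with Ad-Hif2a. It rose by 2.75 ± 0.42 and 3.08 ± 0.42 (log2, ± SE; adjusted p = 0.00702 and 0.00381), and the groups did not overlap. H4c9 stood at 0.883, 1.12 and 1.34 CPM with Ad-C, 6.91, 6.28 and 4.85 CPM with Ad-Hif1a and 5.13, 5.43 and 4.15 CPM with Ad-Hif2a, a rise of 2.41 ± 0.27 and 2.12 ± 0.27 (log2, ± SE; adjusted p = 0.00216 and 0.00282). All 6 vector libraries were again above the controls. H4c1, barely counted with Ad-C at 0, 1 and 1 counts, had 23, 21 and 19 counts with Ad-Hif1a and 15, 22 and 18 with Ad-Hif2a, and rose by 4.84 ± 0.62 and 4.72 ± 0.62 (log2, ± SE; adjusted p = 0.00358 and 0.00309). With 1 or 0 counts in each Ad-C library, the size of that rise is uncertain. H4c1 passed the count filter only through the vector libraries, so a member tested from such low controls had to be higher. Its calls are therefore a description only. H4c18 rose from 1.27, 1.46 and 0.962 CPM to 2.89, 4.65 and 4.54 CPM (log2 fold change 1.73, SE 0.35, adjusted p = 0.0224) and to 4.48, 3.32 and 2.26 CPM (1.44, SE 0.35, adjusted p = 0.0345). Only 12.5% of its 31-base words occur in no other member, so its reads may be shared.

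H4c9 and H4c1 passed the threshold in both comparisons under each of the 18 alternatives in which they were tested, and H4c8 did so with Ad-Hif2a. H4c1 could not be tested where at least 10 counts were required in every library. Its calls under the alternatives are a description only, for the reason given above. The Ad-Hif1a call of H4c8 was lost without Ad-C replicate 1, Ad-C replicate 3 or Ad-Hif1a replicate 2 (adjusted p 0.0510 to 0.0600). That of H4c18 was lost without any 1 Ad-C library or without Ad-Hif1a replicate 2 (0.0912 to 0.140), and its Ad-Hif2a call also without Ad-Hif2a replicate 1 or 2 (0.0665 to 0.167). Of the other H4 genes tested, H4c4 (2.26 and 2.05, adjusted p = 0.110 and 0.114) and H4c3 (4.14 and 2.91, adjusted p = 0.0976 and 0.203) did not pass.

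**Figure D2:**
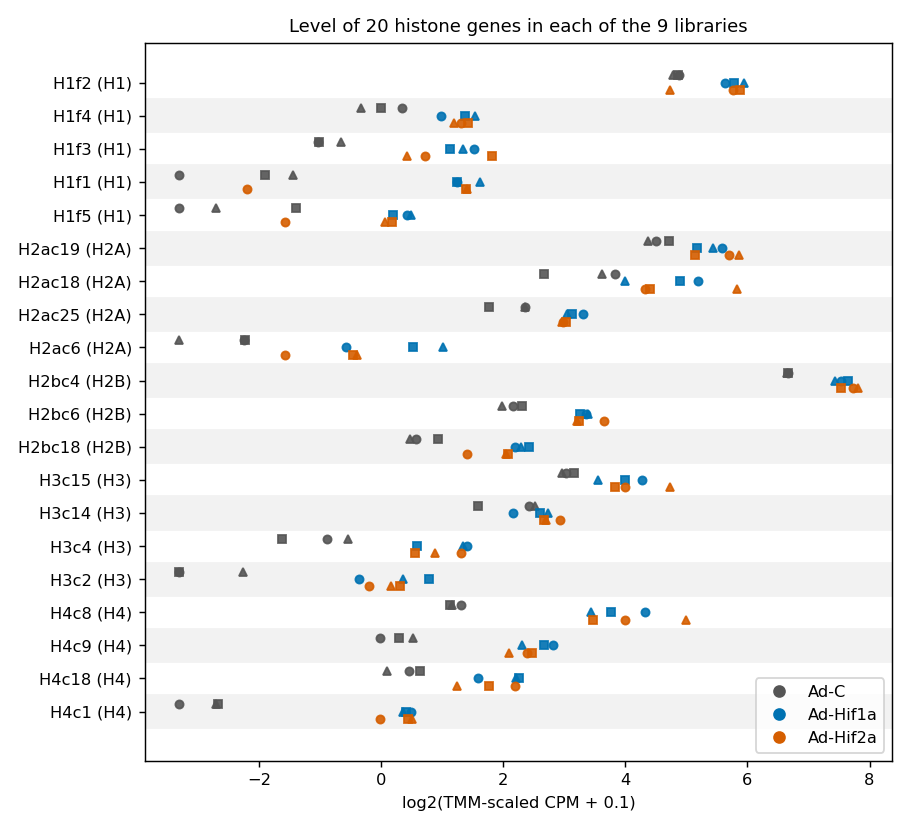
Level of 20 histone genes (rows, ordered by family) in each of the 9 libraries on a log2(CPM + 0.1) axis, with circles, squares and triangles for replicates 1 to 3; a library with no count sits at the left end. Ad-Hif2a replicate 1 lies near the Ad-C libraries for H1f1 and H1f5, and Ad-Hif2a replicate 3 does so for H1f2.

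The H1 linker histones had several members that were low with Ad-C. H1f4 stood at 1.16, 0.897 and 0.695 CPM with Ad-C, 1.87, 2.50 and 2.80 CPM with Ad-Hif1a and 2.36, 2.57 and 2.18 CPM with Ad-Hif2a, and rose by 1.38 ± 0.33 and 1.37 ± 0.32 (log2, ± SE; adjusted p = 0.0365 and 0.0302). H1f3 went from 0.386, 0.393 and 0.535 CPM to 2.78, 2.09 and 2.42 CPM and to 1.53, 3.43 and 1.24 CPM, a rise of 2.46 ± 0.47 and 2.16 ± 0.48 (log2, ± SE; adjusted p = 0.0179 and 0.0242). Neither gene overlapped between the controls and either vector. Over all genes tested, 24.5% had all 3 Ad-Hif1a libraries above the controls and 24% all 3 Ad-Hif2a libraries. H1f3 needed vector libraries to pass the count filter, so its calls and its lack of overlap are a description only.

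H1f1 had 0, 3 and 5 counts with Ad-C, 40, 39 and 48 with Ad-Hif1a and 2, 44 and 35 with Ad-Hif2a. It rose with Ad-Hif1a (log2 fold change 4.34, SE 0.93, adjusted p = 0.0270) and missed the threshold with Ad-Hif2a (3.38, SE 0.94, adjusted p = 0.0514), where replicate 1 was among the controls. H1f5 had the same shape, with 0, 5 and 1 counts, then 22, 18 and 21, then 4, 18 and 13. It rose with Ad-Hif1a (3.54, SE 0.82, adjusted p = 0.0359) and not past the threshold with Ad-Hif2a (2.66, SE 0.85, adjusted p = 0.0774). H1f1 and H1f5 also needed vector libraries to pass the count filter, so their calls are a description only. H1f2, the most highly counted H1 gene, stood at 29.4, 29.0 and 27.4 CPM with Ad-C, 49.2, 55.1 and 61.5 CPM with Ad-Hif1a and 54.4, 58.9 and 26.6 CPM with Ad-Hif2a. Its log2 fold changes were 0.96 ± 0.27 and 0.67 ± 0.27 (log2, ± SE; adjusted p = 0.0694 and 0.137). Ad-Hif2a replicate 3 was the lowest of all 9 libraries for H1f2, and without it both comparisons passed (adjusted p = 0.000189 and 0.000381).

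The H1 calls were sensitive to single libraries. With Ad-Hif1a, H1f3 was lost without any 1 Ad-C library or Ad-Hif1a replicate 1 (adjusted p 0.0636 to 0.116) and H1f1 without any 1 Ad-C library or Ad-Hif1a replicate 2 (0.0622 to 0.125). H1f4 (0.0589 to 0.194) and H1f5 (0.050 to 0.185) were lost without any 1 library other than Ad-Hif2a replicate 3. With Ad-Hif2a, H1f3 was lost without any 1 Ad-C library or Ad-Hif2a replicate 1 or 2 (0.0545 to 0.129), and H1f4 without those or Ad-Hif1a replicate 2 (0.0711 to 0.154) and in the fit of only the 6 libraries compared (0.0624).

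H2bc4, an H2B gene, held 47.8% to 49.4% of the histone CPM with Ad-C and also led per length, at 268 CPM per kb of coding sequence against 59.1 for H2ac19 and 45.0 for H1f2. It stood at 102, 102 and 101 CPM with Ad-C, at 185, 201 and 174 CPM with Ad-Hif1a and at 212, 185 and 226 CPM with Ad-Hif2a. The rise was 0.88 ± 0.15 and 1.03 ± 0.15 (log2, ± SE; adjusted p = 0.0104 and 0.00445), with no overlap with the controls. H2bc6 rose from 4.36, 4.82 and 3.85 CPM to 10.1, 9.48 and 10.3 CPM (1.20, SE 0.20, adjusted p = 0.00920) and to 12.4, 9.32 and 9.10 CPM (1.24, SE 0.20, adjusted p = 0.00684). H2bc18, for which 92% of the 31-base words occur in no other member, rose from 1.38, 1.79 and 1.28 CPM to 4.48, 5.23 and 4.78 CPM (1.70, SE 0.25, adjusted p = 0.00568) and to 2.54, 4.12 and 4.01 CPM (1.24, SE 0.25, adjusted p = 0.0161). The controls lay below every vector library for both genes.

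With Ad-Hif1a, the H2bc4 call was lost without any 1 Ad-C library or Ad-Hif1a replicate 2 (adjusted p 0.0704 to 0.106), that of H2bc6 without Ad-C replicate 1, Ad-C replicate 3 or Ad-Hif1a replicate 2 (0.0648 to 0.0886) and that of H2bc18 without Ad-C replicate 3 (0.0507). With Ad-Hif2a, H2bc4 was lost without Ad-C replicate 1 (0.0512), H2bc6 without Ad-C replicate 1 or 3 (0.0592 to 0.0699) and H2bc18 without any 1 Ad-C library or Ad-Hif2a replicate 2 (0.0521 to 0.106) and in the fit of only the 6 libraries compared (0.0598). The other 6 H2B genes tested did not pass. H2bc24 (0.42 and 0.31), H2bc8 (0.33 and 0.26) and H2bc21 (0.41 and -0.12) had small differences, while H2bc23 (2.80 and 3.12), H2bc11 (2.69 and 2.01) and H2bc13 (1.77 and 2.04) had larger ones with SEs of 0.63 to 1.6.

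Among H2A genes, H2ac19 and H2ac18 held most of the counts, and every 31-base word of H2ac19 also occurs in another member, so reads cannot be assigned to it with confidence. H2ac19 was counted at 22.6, 26.1 and 20.5 CPM with Ad-C, 47.7, 36.1 and 43.3 CPM with Ad-Hif1a and 51.5, 35.2 and 57.8 CPM with Ad-Hif2a, a rise of 0.86 ± 0.22 and 1.03 ± 0.22 (log2, ± SE; adjusted p = 0.0472 and 0.0205). H2ac18 stood at 14.1, 6.22 and 12.1 CPM, then 36.4, 29.8 and 15.8 CPM, then 19.99, 21.1 and 56.9 CPM, and did not pass (1.44 and 1.58, adjusted p = 0.127 and 0.0802). Their sum was 36.7, 32.3 and 32.7 CPM with Ad-C, 84.1, 65.8 and 59.1 CPM with Ad-Hif1a and 71.5, 56.4 and 115 CPM with Ad-Hif2a, so the pair did not overlap with the controls however the reads were split.

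H2ac25 stood at 5.02, 3.31 and 5.03 CPM with Ad-C, 9.80, 8.67 and 8.14 CPM with Ad-Hif1a and 7.79, 8 and 7.65 CPM with Ad-Hif2a, and rose by 1.00 ± 0.21 and 0.82 ± 0.21 (log2, ± SE; adjusted p = 0.0250 and 0.0402). H2ac6 rose with Ad-Hif1a, from 0.110, 0.112 and 0 CPM to 0.566, 1.34 and 1.93 CPM (3.90, SE 0.76, adjusted p = 0.0192), and stood at 0.236, 0.629 and 0.655 CPM with Ad-Hif2a (2.6, adjusted p = 0.0750). H2ac4 rose with Ad-Hif2a only just past the threshold (2.17, adjusted p = 0.0442) and had 2.09 with Ad-Hif1a (adjusted p = 0.0605). H2ac6 and H2ac4 needed vector libraries to pass the count filter, so their calls are a description only. The remaining H2A genes tested did not pass: H2ac23 (-1.06 and -0.54), H2ac10 (-0.28 and -0.16), H2ac24 (0.70 and -0.21) and H2ac8 (0.26 and 0.21). H2ac13 had no count with Ad-C and 16, 0 and 25 counts with Ad-Hif1a and 0, 29 and 34 with Ad-Hif2a, at least 14.9-fold and 25.1-fold higher against a floor of 3 counts over the 3 Ad-C libraries, but it did not pass (adjusted p = 0.220 and 0.133).

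The H2A calls were also lost without single libraries. With Ad-Hif1a this was so for H2ac19 without Ad-C replicate 1 or 3, any Ad-Hif1a library or Ad-Hif2a replicate 1 (adjusted p 0.0576 to 0.268), as well as with upper-quartile factors (0.0533) or at least 10 counts in every library (0.0524), and for H2ac25 and H2ac6 without any 1 Ad-C library or Ad-Hif1a replicate 1 or 2 (0.0846 to 0.155 and 0.0547 to 0.0979). With Ad-Hif2a it was so for H2ac19 without Ad-C replicate 1 or 3 or Ad-Hif2a replicate 1 (0.0800 to 0.144), and for H2ac25 without any 1 library other than Ad-Hif1a replicate 3 and Ad-Hif2a replicate 3 (0.0660 to 0.164), as well as with no filter (0.0614) or only the 6 libraries compared (0.0880).

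The most highly counted H3 gene was H3c15, at 8.01, 8.80 and 7.70 CPM with Ad-C, 19.3, 15.9 and 11.6 CPM with Ad-Hif1a and 15.7, 14.2 and 26.4 CPM with Ad-Hif2a. It rose with Ad-Hif2a (1.18, SE 0.31, adjusted p = 0.0415) and missed the threshold with Ad-Hif1a (0.93, SE 0.30, adjusted p = 0.103), although neither vector group overlapped with the controls. H3c14 stood at 5.24, 2.92 and 5.61 CPM, 4.36, 5.93 and 6.52 CPM, and 7.49, 6.23 and 6.41 CPM (0.32 and 0.58, adjusted p = 0.503 and 0.188). Summed, H3c14 and H3c15 gave 13.3, 11.7 and 13.3 CPM with Ad-C, 23.6, 21.8 and 18.1 CPM with Ad-Hif1a and 23.2, 20.4 and 32.8 CPM with Ad-Hif2a. H3c4 and H3c2, with few counts in the controls, were called in both comparisons. Both needed vector libraries to pass the count filter, so their calls are a description only. H3c4 rose from 0.442, 0.224 and 0.588 CPM to 2.55, 1.40 and 2.42 CPM (2.33, SE 0.34, adjusted p = 0.00608) and to 2.36, 1.37 and 1.75 CPM (2.14, SE 0.35, adjusted p = 0.00721). H3c2 rose from 0, 0 and 0.107 CPM to 0.680, 1.63 and 1.18 CPM (4.73, SE 0.77, adjusted p = 0.00922) and to 0.767, 1.14 and 1.02 CPM (4.53, SE 0.78, adjusted p = 0.00972).

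The calls of H3c4 were lost without Ad-C replicate 1 (adjusted p 0.0596 and 0.0647). Those of H3c2 were lost without Ad-C replicate 1 (0.0614 and 0.0599) and, with Ad-Hif1a, without Ad-C replicate 2 or Ad-Hif1a replicate 2 (0.0508 and 0.0652). H3c15 lost its Ad-Hif2a call without any 1 Ad-C library, Ad-Hif1a replicate 2 or Ad-Hif2a replicate 1 (0.0734 to 0.208). H3c3 had no count with Ad-C, 14, 20 and 13 counts with Ad-Hif1a and 1, 22 and 0 with Ad-Hif2a, at least 16.8-fold and 7.99-fold higher against the same floor (adjusted p = 0.0706 and 0.130). H3c11 gave 3.67 and 1.95 (adjusted p = 0.118 and 0.363).

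Several values that missed the threshold passed it without the replicate block or with DESeq2. Without the block, edgeR called H1f2 and H3c15 with Ad-Hif1a (adjusted p = 0.0324 and 0.0405) and H1f1, H1f5 and H2ac18 with Ad-Hif2a (0.0335, 0.0463 and 0.0395), all higher. DESeq2 called the same 5 (0.0111, 0.0360, 0.00237, 0.0210 and 0.00678), as well as H2ac18 with Ad-Hif1a (0.0205) and H2ac6 with Ad-Hif2a (0.0279).

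**Figure D3:**
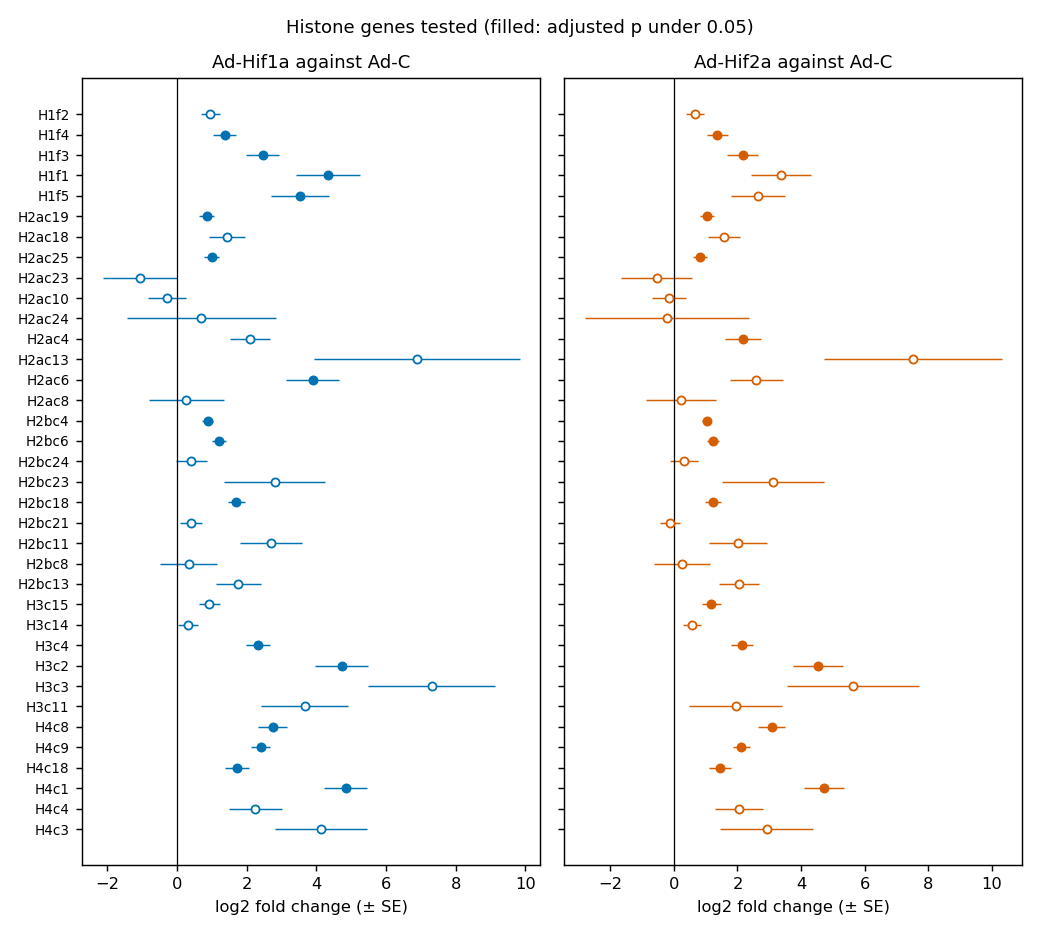
Log2 fold change of each of the 36 histone genes tested, with whiskers of 1 SE, for Ad-Hif1a (left panel) and for Ad-Hif2a (right panel), each against Ad-C; rows are ordered by family and level, and filled circles passed an adjusted p of 0.05. Filled circles lie only to the right of 0, between 0.86 and 4.84 with Ad-Hif1a and between 0.82 and 4.72 with Ad-Hif2a.

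In all, 27 of the 36 genes tested had 3 Ad-Hif1a libraries above 3 Ad-C libraries, where 24.5% of all genes did, and 0 had them below, where 25.9% did. With Ad-Hif2a the counts were 21 above, against 24% of all genes, and 0 below, against 25.5%. These counts are a description only, since the Ad-C libraries alone would have kept 17 of the 36 genes tested. The others needed vector libraries to pass the count filter. The median log2 fold change over the members tested was 1.75 and 1.77, a description only, since the filter kept some through the vector libraries, and that over all genes was 0.01 in both comparisons. Another scaling left the median of all genes between -0.04 and 0.02 in the comparisons with Ad-C.

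The 30 genes not tested had 0 to 70 counts over the 9 libraries together. Summed, they gave 19 to 46 counts in an Ad-C library, 104 to 145 in an Ad-Hif1a library and 59 to 121 in an Ad-Hif2a library, and their mean CPM was higher in 26 and lower in 2 with Ad-Hif1a and higher in 27 and lower in 2 with Ad-Hif2a. H3c6 led them with 70 counts, followed by H2bc3 with 58, H2bc9 with 48, H2ac12 with 45, H3c8 with 44, and H3c1 and H2ac7 with 43. H2bc12, H3c7, H2ac1, H4c12, H4c2, H2bc22, H2ac20 and H2bc7 had between 34 and 20 counts. H2bc15, H3c13, H4c16, H2bc27, H4c14, H2bc1, H4c11, H4c6, H2bc14, H2ac11, H2ac15, H3c10, H2ac22 and H4c17 had between 19 and 1, and H2ac21 had none. Each was too thinly counted to be tested alone.

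No histone gene passed the test between the vectors. With Ad-Hif2a against Ad-Hif1a, 0 of the 36 genes tested passed and 0% of all genes did, and 0 members had an unadjusted p under 0.05, where 338 genes of all tested did. DESeq2 also called 0 members, and 19 genes in all. The log2 fold changes ran from -1.72 for H3c11 (SE 1.08) to 0.61 for H2ac13 (SE 1.54), 13 positive and 23 negative. H2bc4 gave 0.15, H4c8 0.33 and H4c9 -0.29. In 4 genes every Ad-Hif2a library lay below every Ad-Hif1a library, namely H2ac25, H2bc18, H2bc21 and H1f5, where 3.21% of all genes did so, and in 0 genes above, where 3.07% did. Equal levels were not shown by these tests.

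Libraries of 1 group differed in a way that ran through several members. Ad-Hif2a replicate 1 was the lowest of the 6 vector libraries for 10 of the 36 genes tested, where it was lowest for 13% of all genes. H1f1, H1f5 and H2ac6 were lowest in it within the Ad-Hif2a group, while H3c3 (1, 22 and 0 counts), H3c11 (2, 13 and 0) and H4c3 (4, 14 and 0) were low in replicates 1 and 3 alike. It also had the lowest sums of DNA replication genes, 662 CPM, and of mitotic genes, 341 CPM, of all 9 libraries; their part in the result was not tested. Ad-Hif2a replicate 3, the library with the fewest counts, was the lowest of the 6 for 12 genes and the highest for 9, where it was lowest for 35.2% and highest for 33.1% of all genes. In 7 members (H2ac23, H2ac24, H3c3, H2ac7, H2ac13, H2bc23 and H2ac8) a library at 0 stood beside one of at least 20 counts in the same group. H2bc23, for example, had 71, 0 and 0 counts with Ad-C. Of the 62 members with a matched transcript, 15 had under 15% of their 31-base words to themselves.

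Where a member is annotated to end bears on whether its counts can come from a polyadenylated form, since the sources call the RNA total and do not state if poly(A) RNA was selected. Among 12 RNAs that lack a poly(A) tail, such as Rn7sk and Rmrp, 4 had no count in any library and the sum was 3.25 to 4.58 CPM per Ad-C library, 4.07 to 9.01 per Ad-Hif1a library and 4.12 to 8.20 per Ad-Hif2a library. Rn7sk, the only one tested, gave 0.76 and 0.88 (adjusted p = 0.120 and 0.0640). Of the 62 matched histone genes, 20 were annotated with at least 200 bases after the stop codon, past where the stem-loop usually lies. These held 72.6% to 74.5% of the histone CPM of an Ad-C library, 67.1% to 71.6% in the Ad-Hif1a group and 64.3% to 72.8% in the Ad-Hif2a group.

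Both kinds of gene were higher with the vectors. The 20 long ones, among them H2bc4, H1f2 and H2bc6, summed to 159, 152 and 151 CPM with Ad-C, 296, 311 and 294 CPM with Ad-Hif1a and 319, 299.8 and 324 CPM with Ad-Hif2a. The 42 short ones, among them H2ac19 and H4c8, summed to 45.4 to 46.5 CPM per Ad-C library, 102 to 130 per Ad-Hif1a library and 98.2 to 169 per Ad-Hif2a library. They include the 17 whose annotated transcript ended within 48 bases of the stop codon with no stem-loop found. Short therefore describes the annotation and not a known 3′ end. Of 15 long genes tested, 7 rose with each vector, and of 19 short genes tested, 8 rose with Ad-Hif1a and 7 with Ad-Hif2a. Among all genes tested, 6.04% rose with Ad-Hif1a and 7.87% with Ad-Hif2a. Members of both kinds needed vector libraries to pass the count filter, so these counts are a description only. The counts do not show where in a transcript reads fell, so how much of any gene's count came from longer transcripts was not measured.

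**Figure D4:**
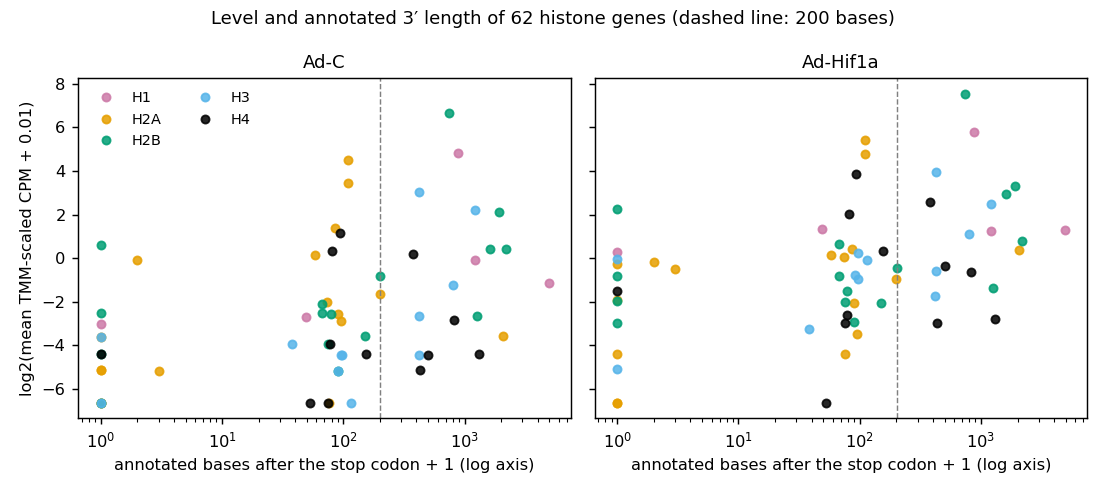
Level of 62 histone genes against the annotated length after the stop codon (log axis, plus 1), coloured by family, with Ad-C on the left and Ad-Hif1a on the right; the vertical axes are log2(mean TMM-scaled CPM of 3 libraries + 0.01) and the dashed line is at 200 bases. The highest points, H2bc4 and H1f2, lie right of the line, and points on both sides are higher in the right panel.

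Since 13 members rose in both comparisons, promoters were also read, from RefSeq on GRCm38.p6 (250 bases before to 50 after the start). Sequences were at hand for 57 members, 58 in all. For each family, the member called in both comparisons with the lowest adjusted p among those with a sequence is shown on its own strand. Capitals mark, on either strand, the CCAAT box, the TATA box written TATAAA, the octamer written ATTTGCAT, the H1 box written AAACACA and the core HIF site, which is ACGTG or else GCGTG; adjoining matches share a run.
H1f3, chr13:23554782-23555081, plus strand: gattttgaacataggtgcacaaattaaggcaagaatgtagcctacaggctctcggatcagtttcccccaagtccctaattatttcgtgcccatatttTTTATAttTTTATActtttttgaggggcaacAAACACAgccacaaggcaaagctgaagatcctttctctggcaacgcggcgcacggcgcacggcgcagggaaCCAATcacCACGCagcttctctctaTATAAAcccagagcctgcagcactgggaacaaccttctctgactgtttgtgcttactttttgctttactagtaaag
H2ac19, chr3:96240325-96240624, minus strand: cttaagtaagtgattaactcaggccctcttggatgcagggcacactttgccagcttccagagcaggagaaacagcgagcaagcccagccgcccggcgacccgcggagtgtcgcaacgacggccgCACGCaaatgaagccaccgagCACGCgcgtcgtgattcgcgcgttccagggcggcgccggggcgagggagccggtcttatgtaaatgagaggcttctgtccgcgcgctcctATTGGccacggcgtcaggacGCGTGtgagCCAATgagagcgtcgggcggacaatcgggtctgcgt
H2bc18, chr3:96269450-96269749, plus strand: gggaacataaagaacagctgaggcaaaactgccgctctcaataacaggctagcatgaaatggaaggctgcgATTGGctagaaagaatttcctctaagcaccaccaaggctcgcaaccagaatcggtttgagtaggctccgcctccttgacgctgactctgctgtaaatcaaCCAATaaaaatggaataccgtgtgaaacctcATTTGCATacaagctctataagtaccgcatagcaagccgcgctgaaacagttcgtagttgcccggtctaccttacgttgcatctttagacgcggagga
H3c4, chr13:23575513-23575812, plus strand: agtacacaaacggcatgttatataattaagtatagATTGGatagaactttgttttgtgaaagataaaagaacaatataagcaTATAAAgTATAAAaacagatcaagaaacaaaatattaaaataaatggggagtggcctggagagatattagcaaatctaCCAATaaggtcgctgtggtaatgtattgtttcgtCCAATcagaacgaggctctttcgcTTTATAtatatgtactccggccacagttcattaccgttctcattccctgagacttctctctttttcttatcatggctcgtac
H4c9, chr13:22041313-22041612, minus strand: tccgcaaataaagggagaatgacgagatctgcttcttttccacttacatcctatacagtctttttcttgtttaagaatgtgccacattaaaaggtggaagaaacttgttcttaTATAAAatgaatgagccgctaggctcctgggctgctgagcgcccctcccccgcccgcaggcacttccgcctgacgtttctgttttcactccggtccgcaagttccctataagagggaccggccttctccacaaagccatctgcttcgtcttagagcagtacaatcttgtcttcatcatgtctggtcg
CCAAT stood in 86.2% of the histone promoters and 37.4% of all promoters of the same length, but in 27.3% of the H4 ones. TATAAA stood in 58.6% against 13.6%. The octamer, known from H2B promoters, stood in 46.7% of the H2B and 35.3% of the H2A promoters against 1.74% of all, and the H1 box in 80% of the H1 promoters against 7.18%. Some octamers were counted in both families, since pairs of H2A and H2B genes shared 220 to 279 bases of these windows. The core HIF letters stood in 43.1% of the histone promoters and 43.8% of all. A match is a run of letters and not a bound site.

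The genes that histone supply runs beside were read from lists of their own. None of 18 genes for histone transcription and mRNA 3′ end processing passed with edgeR in either comparison, with 3 and 6 at an unadjusted p under 0.05 and with 0 and 3 called by DESeq2. Slbp, which binds the stem-loop, averaged 42.05 ± 2.48 CPM in the controls, 42.3 ± 4.05 under Ad-Hif1a and 44.2 ± 1.67 under Ad-Hif2a, and Npat, with a wider spread, 38 ± 2.75, 25.1 ± 12.7 and 23.8 ± 13.1 CPM. Closest to the threshold were Sympk, part of the cleavage complex (0.45 and 0.49, adjusted p = 0.101 and 0.0639), and Eri1, an exonuclease that trims histone mRNA ends (-0.51 and -0.73, adjusted p = 0.193 and 0.0662). Of 19 histone chaperone genes, 0 rose and 1 fell with each vector, Asf1b with Ad-Hif1a (-0.75, SE 0.18, adjusted p = 0.0408) and Atrx with Ad-Hif2a (-0.82, SE 0.17, adjusted p = 0.0177). Among all genes tested, 5.22% and 7.72% fell, so 1 of 19 does not set the list apart.

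Replication-independent variants mostly give polyadenylated mRNA outside S phase too, though H2ax also gives a stem-loop transcript and Cenpa is made mainly in G2. Of 11 such genes, 1 rose with each vector. It was H3f3b, which encodes H3.3, at 162 ± 6.76 CPM in the controls, 247 ± 6.11 under Ad-Hif1a and 278 ± 31.3 under Ad-Hif2a (0.61 and 0.78, each with an SE of 0.15, adjusted p = 0.0406 and 0.0137). Among all genes tested, 6.04% and 7.87% rose, so 1 of 11 does not set the list apart. The list's medians were 0.16 and 0.33. H2aj gave 1.40 and 1.98 with a wide spread (adjusted p = 0.191 and 0.0755), and the variant linker gene H1f0 gave 0.37 and 0.44 (adjusted p = 0.305 and 0.186).

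Most genes of S phase and mitosis had negative log2 fold changes with the vectors, and a minority of them passed the test. Of 32 DNA replication and G1/S genes, 0 rose and 1 fell with Ad-Hif1a, Pola1, the catalytic subunit of DNA polymerase α (-0.87, SE 0.21, adjusted p = 0.0436). With Ad-Hif2a, 4 fell: Pola1 (-1.07, adjusted p = 0.0177), the primase gene Prim1 (-0.95, adjusted p = 0.0355), the helicase gene Mcm6 (-0.69, adjusted p = 0.0447) and E2f2 (-0.95, adjusted p = 0.0451). The calls were 1 and 4 of 32, where 5.22% and 7.72% of all genes tested fell. At an unadjusted p under 0.05, 0 and 1 genes were higher and 11 and 13 lower, and DESeq2 called 0 and 1 as risen and 6 and 7 as fallen. The list's medians were -0.51 and -0.47, with 28 and 30 of 32 genes negative, and its sum was 1008 to 1026 CPM per Ad-C library, 765 to 816 per Ad-Hif1a library and 662 to 916 per Ad-Hif2a library.

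Of 20 G2 and mitosis genes, 3 fell with Ad-Hif1a and 7 with Ad-Hif2a, where 5.22% and 7.72% of all genes tested fell. In this list 0 rose, and all 20 were negative in both. At an unadjusted edgeR p under 0.05 there were 12 and 16, where 3771 and 4889 of 14413 genes were in either direction. DESeq2 called 8 and 15 of the 20. The medians were -0.63 and -0.93. Mki67, a proliferation marker, fell by 1.35 on the log2 scale (SE 0.31, adjusted p = 0.0336) and by 1.58 (SE 0.31, adjusted p = 0.0163), and Cenpf by 1.22 (adjusted p = 0.0406) and 1.53 (adjusted p = 0.0157). Of 10 CDK inhibitor and pocket protein genes, Cdkn1c fell with each vector (-1.69 and -1.77, adjusted p = 0.0187 and 0.0132), Rbl1 fell with Ad-Hif2a (-1.30, adjusted p = 0.0299) and Cdkn1a, the p21 gene, rose with Ad-Hif2a (0.73, adjusted p = 0.0335). In bulk RNA, fewer cells of a kind and less RNA per cell cannot be told apart.

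**Figure D5:**
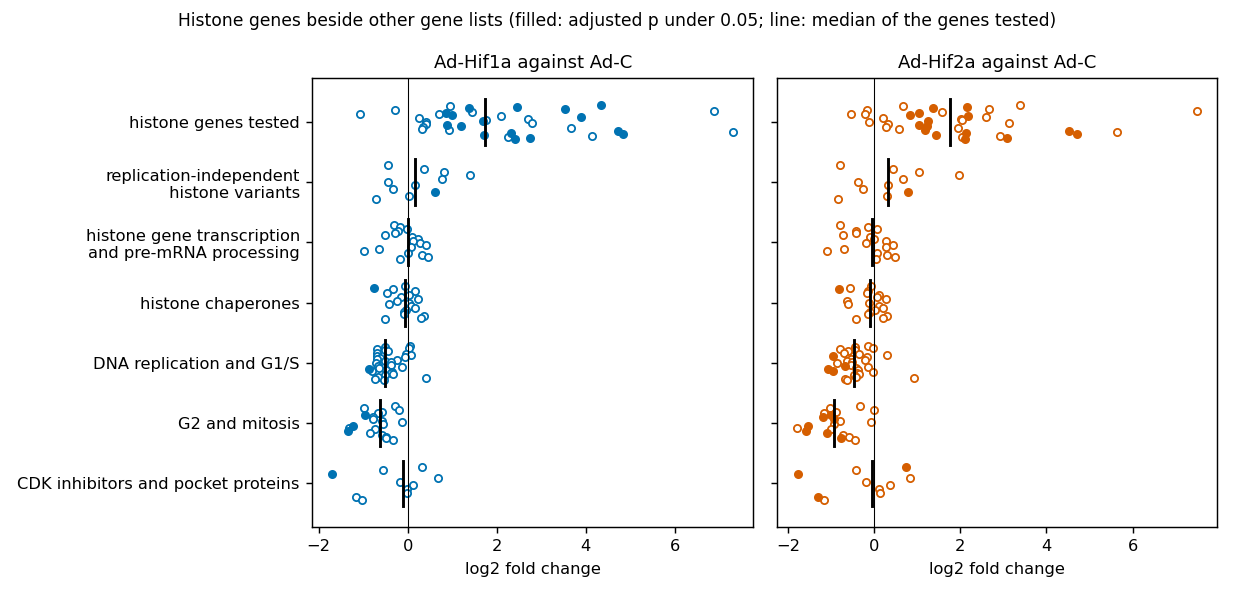
Log2 fold change of each gene tested in the histone list and 6 other lists, in the left panel with Ad-Hif1a and in the right panel with Ad-Hif2a, each against Ad-C; filled circles passed an adjusted p of 0.05 and each black line is the median of the genes tested. The histone medians are 1.75 and 1.77, those of the DNA replication list -0.51 and -0.47 and those of the mitotic list -0.63 and -0.93. The histone medians are a description only, since the Ad-C libraries alone would have kept 17 of the 36 genes tested.

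Markers of other cells moved with the same comparisons, and their part in the histone result was not tested. Over all genes tested, 5.22% fell with Ad-Hif1a and 7.72% with Ad-Hif2a, while 6.04% and 7.87% rose. Of 10 macrophage markers, 7 fell with Ad-Hif1a and 6 with Ad-Hif2a, and their sum was 1011 to 1070 CPM per Ad-C library, 368 to 384 per Ad-Hif1a library and 355 to 471 per Ad-Hif2a library. Skeletal muscle markers summed to 65.4 to 82.3 CPM, 11.2 to 13.8 CPM and 6.55 to 9.66 CPM. Of the 5 tested, 3 fell with each vector, led by Myh1 (-4.63 and -5.35, adjusted p = 0.000262 and 0.000161), and Acta1 rose (3.22 and 2.47, adjusted p = 0.00176 and 0.00396). Endothelial markers stayed low, at 4.44 to 5.19 CPM with Ad-C and 1.70 to 2.80 CPM with the vectors, with Cldn5 at 0 in every library; Pecam1 rose (3.44, adjusted p = 0.0162) and Kdr fell (-2.35, adjusted p = 0.0286) with Ad-Hif2a. Of 7 osteoblast markers, 3 fell with Ad-Hif1a and 4 with Ad-Hif2a, among them Sp7 (-1.25 and -1.13, adjusted p = 0.00837 and 0.0101). The matrix protein genes Ibsp (0.52 and 0.73, adjusted p = 0.271 and 0.108) and Spp1 (0.37 and 0.61, adjusted p = 0.348 and 0.115) had positive differences that did not pass, and with Ad-Hif2a 2 markers were higher at an unadjusted p under 0.05 and DESeq2 called 1 as risen.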

How the data were processed

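The 9 deposited files hold counts per gene symbol as the authors left them, whole numbers with no normalization. The submitters' processing notes name bcl2fastq 2.20.0.422, fastp, STAR, Salmon and GRCm39 without roles; how reads shared by near-identical genes were divided, and the strand setting, are not given in the sources used here. Libraries were made with the CORALL kit from total RNA.

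Groups came from the sample titles. In R 4.3.3, genes passing filterByExpr of edgeR 4.0.16 (14413 of 40213) were scaled by TMM and fitted by robust quasi-likelihood on all 9 libraries with group and replicate number as terms, since the study names a paired test. Adjustment was by Benjamini-Hochberg across the genes tested and the threshold 0.05. A standard error is the log2 fold change divided by the square root of F. Levels are TMM-scaled CPM. The script was tested on simulated data. DESeq2 1.42.0 and other scalings, filters and sample sets were alternatives.

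The members and gene lists were chosen with earlier results of these data known. Values per library are given for the 2 highest members of each family and for the 16 members with the lowest adjusted p past the threshold, and from each other list up to 4 genes with the lowest adjusted p. Some further values (Slbp, Npat, H1f0) and the sums of H2ac18 with H2ac19 and of H3c14 with H3c15 were chosen after values were seen. Of the 66 members, 62 matched RefSeq and GENCODE M21 entries, of an earlier build than the counts. Total counts of 14372589 to 18623403 set the precision, and floors cover counting error only.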

Additional observations from a re-analysis of the deposited data

How the results depend on the processing

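Under the 18 alternatives, all 702 log2 fold changes of the 20 histone genes with values per library kept their sign against Ad-C, 106 lost their call and 34 gained one. Requiring at least 10 counts in every library left 8 members risen with Ad-Hif1a, of 15 then tested, and 625 genes in all. Leaving out 1 library at a time gave 4 to 29 members risen under Ad-Hif1a and 4 to 20 under Ad-Hif2a. All genes risen in those fits numbered 303 to 2647 and 425 to 1628. Leaving out replicate 1 of Ad-Hif1a together with replicate 3 of Ad-Hif2a, 27 rose and 1 fell in each comparison, with 2066 and 2098 genes risen in all. DESeq2 called 24 and 21, with 1260 and 1825 genes risen in all. The 6 libraries compared alone gave 21 and 12, with 2390 and 871 in all. The fit without the replicate block called 20 and 19, with 1229 and 1792 in all. These members include all 16 and 15 of the blocked fit. Deviations of same-numbered libraries correlated from -0.57 to 0.10 over 9 pairs, with 0 above 0.1. The numbers were therefore not shown to pair the libraries. Apart from construction (fewer genes or libraries), the cause of these shifts was not tested. Counts were too low for 30 of 66 members to be tested, and whether depth was the reason was not tested.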

Other observations

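H2A and H2B genes often lie head to head, and 9 such pairs shared 220 to 279 bases of the 300-base promoter windows read here. Both genes were tested in 3 of these pairs. H2ac13 and H2bc13 averaged 0 and 0.162 CPM with Ad-C, 0.820 and 0.552 CPM with Ad-Hif1a and 1.38 and 0.685 CPM with Ad-Hif2a. H2ac23 and H2bc23 went apart, from 2.58 and 1.31 CPM to 1.31 and 7.70 CPM with Ad-Hif1a and to 1.64 and 8.54 CPM with Ad-Hif2a, but their libraries within a group ran from 0 to over 20 counts. H2ac8 and H2bc8 averaged 0.312 and 0.563 CPM, 0.502 and 0.709 CPM, and 0.406 and 0.658 CPM. None of these 6 genes passed the threshold with edgeR in either comparison (adjusted p 0.0712 to 0.899).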
